A study of Mus musculus with 4 samples.

Results

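The 9 genes described here encode EF-hand proteins that buffer or sense calcium: Ocm, Pvalb, Calb1, Calb2, S100a1, S100b, Calm2, Calm3 and Cabp2. They were chosen by symbol, and each had a row of its own among the 23996 rows with a gene in the deposited table. The cells were sorted from cochleae of C57BL/6 mice on postnatal day 7. All mice carried 4 alleles: Sox2-CreER, a tamoxifen-activated Cre driven by Sox2, Atoh1-HA, which expresses Atoh1 from the CAG promoter once Cre removes a stop cassette, the reporter Atoh1-eGFP, and tdTomato at Rosa26, likewise switched on by Cre. New hair cells were sorted as positive for both eGFP and tdTomato, and are hair cells induced by Atoh1 overexpression (2 libraries). Original hair cells were sorted as positive for eGFP alone (2 libraries). Tamoxifen was given on postnatal day 3 at 0.20 mg per g of body weight, and a control group mentioned in the design received corn oil alone. The labels do not say which injection the mice behind each library received, or whether libraries came from separate or pooled animals.

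The EF-hand is a helix-loop-helix fold whose short acidic loop holds a calcium ion. Buffers such as the parvalbumins and calbindins bind calcium and limit how far and how long it spreads, whereas sensors such as calmodulin change shape on binding and act on other proteins. Hair cells take in calcium through their transduction channels and through voltage-gated channels at the synapse, and mature cochlear hair cells are known for large amounts of mobile calcium buffer. S100a1 and S100b are also widely used as markers of cochlear supporting cells, the epithelial cells around the hair cells.

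Coding bases of an EF-hand loop are shown for the genes below, because this loop is what the set shares and because near-identical copies decide how safely reads can be assigned. Loops were found in GENCODE M21 coding sequences (mm10) with the PROSITE EF-hand signature, and the first one lying within a single exon was taken. Capitals mark the codons at loop positions 1, 3, 5 and 12, which supply side chains that hold the calcium ion.
Ocm (chr5:144024433-144024468, minus strand, exon 2): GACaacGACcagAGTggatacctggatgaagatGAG
Pvalb (chr15:78202526-78202561, minus strand, exon 3): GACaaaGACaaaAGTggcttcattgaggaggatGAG
Calb1 (chr4:15895644-15895679, plus strand, exon 5): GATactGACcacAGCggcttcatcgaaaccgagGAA
Calb2 (chr8:110154653-110154688, minus strand, exon 3): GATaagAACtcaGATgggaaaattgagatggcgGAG
S100a1 (chr3:90511284-90511319, minus strand, exon 3): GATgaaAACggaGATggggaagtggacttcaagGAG
Calm2 (chr17:87435873-87435908, minus strand, exon 3): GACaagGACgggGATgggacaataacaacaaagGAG
Calm3 (chr7:16917667-16917702, minus strand, exon 3): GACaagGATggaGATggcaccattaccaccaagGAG
Cabp2 (chr19:4085585-4085620, plus strand, exon 4): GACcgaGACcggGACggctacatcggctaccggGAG

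Calm2 and Calm3 encode the same calmodulin protein, but their coding sequences differed at 78 of 447 bases. The longest run of bases shared exactly between the transcripts compared was 17. Read length and counting rules were not stated in any label, and processed copies elsewhere in the genome were not examined, so the split between them remains uncertain. The signature occurred 2 times in the coding sequence of Ocm and of Pvalb, 4 times in Calb1, 5 times in Calb2, 3 times in Cabp2, and 1 time in S100a1 and in S100b. It occurred 4 times in Calm2 and in Calm3. Ocm and Pvalb were 59.3% identical over 327 aligned coding bases.

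Values are FPKM (fragments counted per kilobase of a transcript and scaled by the mapped fragments), deposited as 1 value per gene and group. No SD or replicate test can therefore be given, no difference below was set against the spread between libraries, and the depth of each library is unknown. FPKM summed to 244225 in new and 2165833 in original hair cells, so a low level in new hair cells is read below beside its rank and its share. A gene counted as tested if it was above 0 in both groups and reached 1 FPKM in one of them, which 9026 genes met, all 9 EF-hand genes included. Atoh1 stood at 83.4 FPKM in new and 791 FPKM in original hair cells, and since transgene and endogenous transcripts share its row it checks the labels only weakly. All 7 general hair cell markers were above 0 in both groups, with a summed level of 338 FPKM in new and 6542 FPKM in original hair cells. Lhfpl5, Otof and Cib2 gave most of the sum in original hair cells, and Otof is also on the inner hair cell list used below. Cib2 is also among the other EF-hand genes counted below. Pou4f3 stood nearly level, at 16.1 FPKM in new and 16.7 FPKM in original hair cells. The 13 supporting cell markers summed to 1117 FPKM in new and 279 FPKM in original hair cells. Most of the sum in new hair cells came from Epyc (725 FPKM) and Fabp7 (278 FPKM). Sox2 (21.8 FPKM in new and 61.5 FPKM in original) and Hes1 (11.3 FPKM in new and 24.7 FPKM in original) were lower in new as deposited. Both were higher in new after quantile normalization or with the columns scaled to equal sums. The rows of Epyc and Sox2 share their loci with other genes.

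On the deposited scale, 7 of the 9 genes were at least 2-fold lower in new hair cells and the other 2 at least 2-fold higher, counted on log2(FPKM + 1). Over all tested genes, 34.9% were at least 2-fold lower and 19.9% at least 2-fold higher. The median difference of the 9 genes was -3.30, against -0.21 over all tested genes. Abundance goes with this count: of the 424 tested genes with at least 1000 FPKM in original hair cells, 99.8% were at least 2-fold lower, and 6 of the 9 genes are among them. Among the 1450 tested genes whose geometric mean FPKM was at least the 32.1 of the lowest member, 74.8% were at least 2-fold lower and 10.7% at least 2-fold higher. At least 10-fold lower were 4 of the 9 genes, 16.6% of all tested genes and 75.5% of the 424 abundant ones. The class of abundant genes was set on the original column alone. There 426 genes of the table reached 1000 FPKM, against 20 in new hair cells. Nearly all of that class being lower thus follows in part from how it was chosen. In the class set on the geometric mean of both columns, most genes were also lower. What distinguishes the 9 genes from each other is how much lower or higher they stood. Fewer cells of a type and less RNA per cell cannot be told apart in these sorted pools.

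**Figure D1:**
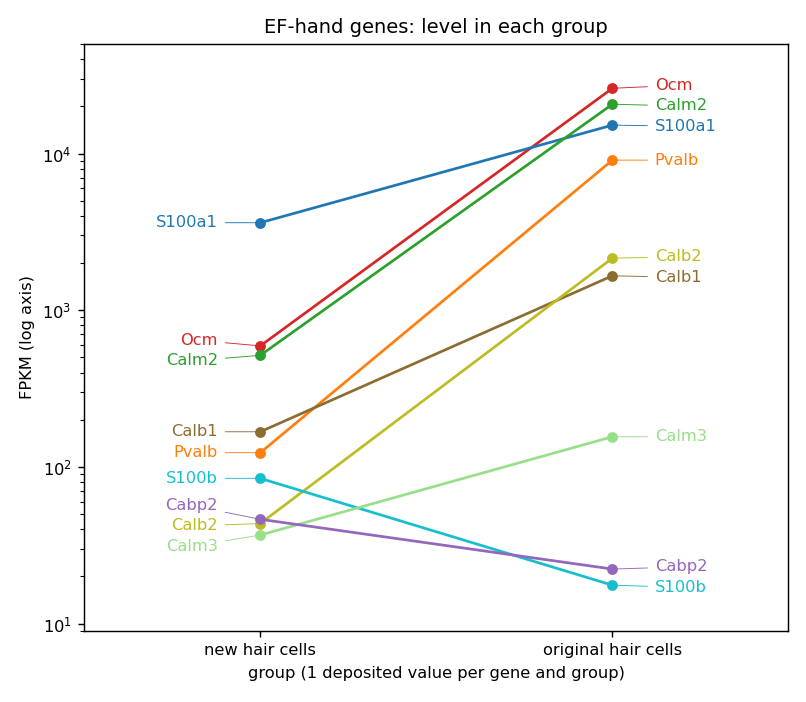
Level of each of the 9 EF-hand genes in new (left) and original (right) hair cells, in FPKM on a log axis, with 1 deposited value per gene and group. Lines join the values of a gene: 7 lines are lower in new hair cells, those of S100b and Cabp2 are higher, and S100a1 is the highest of the 9 in new hair cells but the third in original hair cells.

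The parvalbumins, small and mobile calcium buffers, stood far lower in new hair cells. Ocm, or oncomodulin, is a beta parvalbumin and in the cochlea a buffer of outer hair cells. It stood at 592 FPKM in new hair cells and 26071 FPKM in original hair cells, 44.0-fold lower in new. Its rank among all genes of a group was 71 in new and 6 in original hair cells. In the authors' deposited table its unadjusted p was 0.0204. Pvalb, the alpha parvalbumin of inner hair cells and of many neurons, stood at 123 FPKM in new and 9074 FPKM in original hair cells. It was 73.6-fold lower in new, the largest fold of the 9 genes, with an unadjusted p of 0.00775 in the authors' deposited table. Its rank was 372 in new and 40 in original hair cells.

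Ocm had the higher level of both parvalbumins in each group. Ocm over Pvalb was 4.80 in new and 2.87 in original hair cells, a ratio that does not depend on a constant factor applied to either column. Among the 424 genes with at least 1000 FPKM in original hair cells, 22.4% had a more negative difference than Pvalb and 29.3% than Ocm on the log2(FPKM + 1) scale. By the distance of log2 FPKM in both groups, the 3 tested genes closest to Ocm were Pcp4 (distance 0.34), Calm2 (0.39) and Cox8a (0.50), a likeness over 2 values only. Pcp4, a small calmodulin-binding protein, stood at 714 FPKM in new and 22530 FPKM in original hair cells. Cox8a, a subunit of cytochrome c oxidase, stood at 646 FPKM in new and 18696 FPKM in original hair cells.

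Pvalb, Calb1 and Calb2 are also expressed by neurons, including those of the spiral ganglion. The 10 spiral ganglion neuron markers summed to 81.9 FPKM in new and 3842 FPKM in original hair cells. Of 6 tested ones 4 were at least 2-fold lower in new and none at least 2-fold higher, beside 34.9% and 19.9% of all tested genes. Nefl, a neurofilament subunit, gave most of the sum in original hair cells, at 2.70 FPKM in new and 3214 FPKM in original hair cells. Gata3 gave most of the sum in new hair cells, at 66.9 FPKM in new and 300 FPKM in original hair cells. Snap25 was the only tested one not lower in new, at 2.27 FPKM in new and 1.59 FPKM in original hair cells. Rbfox3 stood at 5.63 FPKM in new and 309 FPKM in original hair cells. The neuronal markers Tubb3, Stmn2, Nefh and Prph were under 1 FPKM in both groups, Prph being listed at 0 in new hair cells. The part of neurons in the levels of Pvalb, Calb1 and Calb2 was not tested.

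Most tested markers of inner and outer hair cells were also lower in new hair cells. The 6 inner hair cell markers summed to 60.7 FPKM in new and 8209 FPKM in original hair cells, with Nhlh2 listed at 0 in original hair cells. Of 5 tested ones 4 were at least 2-fold lower in new, beside 34.9% of all tested genes. Tbx2, a transcription factor, stood at 9.86 FPKM in new and 5.30 FPKM in original hair cells. It was at least 2-fold higher in new with trimmed-mean scaling, quantile normalization or equal column sums. The 7 outer hair cell markers summed to 47.4 FPKM in new and 490 FPKM in original hair cells. The 4 tested ones were at least 2-fold lower in new on the deposited scale, beside 34.9% of all tested genes. After quantile normalization 3 of the 4 were so, and with equal sums none was, beside 26.2% and 15.0% of all tested genes. Sri, which is also on the list of other EF-hand genes, was higher in new with equal sums. The 3 markers that were not tested were under 1 FPKM in both groups, Ikzf2 and Bcl11b among them being higher in new hair cells. The part of subtype proportions in the levels of Ocm and Pvalb was not tested.

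The calbindins, larger buffers with several EF-hands, separated from each other. Calb1, calbindin-D28k, stood at 168 FPKM in new and 1658 FPKM in original hair cells, 9.89-fold lower in new. Its rank was almost the same in both groups, 300 in new and 298 in original hair cells. Calb2, calretinin, stood at 43.5 FPKM in new and 2148 FPKM in original hair cells, 49.3-fold lower in new, and its rank was 855 in new and 237 in original hair cells. The order of the calbindins was thus reversed: Calb1 over Calb2 was 3.85 in new and 0.77 in original hair cells, a 4.99-fold difference between the groups. In the authors' deposited table the unadjusted p was 0.129 for Calb1 and 0.0536 for Calb2. Of the 424 abundant genes, 75.5% had a more negative difference than Calb1 and 27.8% than Calb2. The row of Calb2 shares its locus with a microRNA gene that is listed at 0 in both groups.

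The S100 genes encode small dimeric EF-hand proteins that act as calcium sensors. S100a1 stood at 3617 FPKM in new and 15179 FPKM in original hair cells, 4.20-fold lower in new on the deposited scale. It was nevertheless the gene with the highest FPKM of all 23996 in new hair cells, while its rank in original hair cells was 16. The next gene in new hair cells stood at 2812 FPKM. S100a1 held 1.48% of the FPKM sum in new and 0.70% in original hair cells, a 2.11-fold larger share in new. On equal column sums its log2 difference was 1.08, below the median of 2.53 over all tested genes. The share of S100a1 thus rose less than that of the median tested gene. Of the 424 abundant genes, 95.8% had a more negative difference than S100a1, and 17 genes a less negative one. Its unadjusted p in the authors' deposited table was 0.374.

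S100b, the other S100 gene of the set, was among the 2 genes higher in new hair cells. It stood at 84.5 FPKM in new and 17.6 FPKM in original hair cells, 4.80-fold higher in new, and its rank was 519 in new and 2831 in original hair cells. Over all tested genes, 95.6% had a lower difference than S100b. Of the 3075 tested genes with 10 to under 1000 FPKM in original hair cells, 8.20% were at least 2-fold higher and 98.2% had a lower difference than S100b. This class was also set on the original column alone, so its many lower genes follow in part from how it was chosen. The unadjusted p of S100b was 0.261 in the authors' deposited table. S100a1 over S100b was 42.8 in new and 863 in original hair cells, so the S100 genes of the set did not share 1 ratio between groups.

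Glial cells also express S100b. The 9 Schwann cell and glia markers summed to 307 FPKM in new and 1072 FPKM in original hair cells. The 6 tested ones were divided, 3 being 2-fold or more higher and 3 as much lower in new, beside 19.9% and 34.9% of all tested genes. Fabp7, also on the supporting cell list, gave most of the sum in new hair cells, at 278 FPKM in new and 72.4 FPKM in original hair cells. Cnp gave most of it in original hair cells, at 3.998 FPKM in new and 983 FPKM in original hair cells. Of 12 tested supporting cell markers, 8 were higher by 2-fold or more in new hair cells as deposited and 2, Sox2 and Hes1, lower by as much. Over all tested genes these shares were 19.9% and 34.9%. After quantile normalization 8 of the 12 were at least 2-fold higher and none was lower. With equal sums all 12 were at least 2-fold higher. Over all tested genes, 31.8% and 69.6% were at least 2-fold higher under these 2 settings. Sox10, which both lists hold, stood at 15.7 FPKM in new and 2.84 FPKM in original hair cells. The part of glia and supporting cells in the levels of S100a1 and S100b was not tested.

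**Figure D2:**
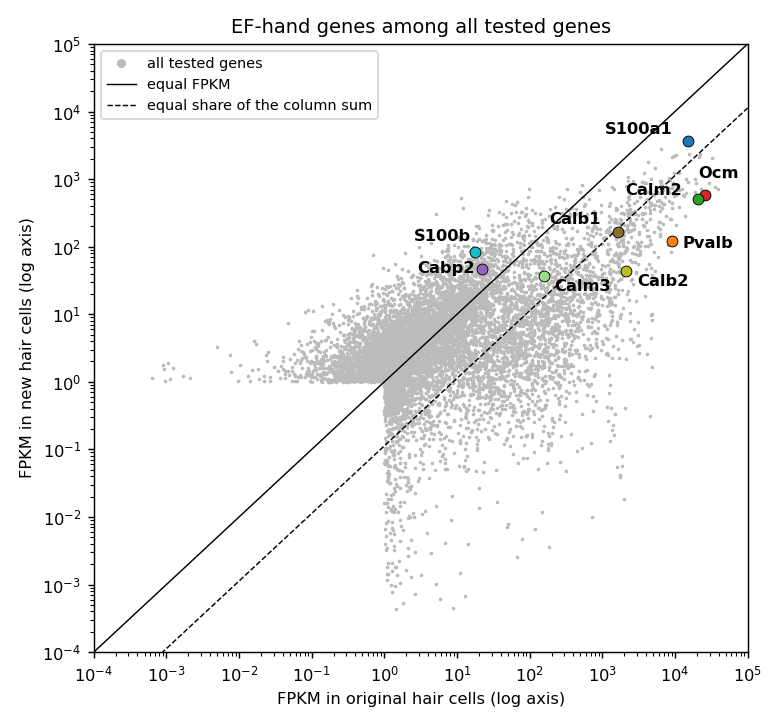
FPKM in new (y axis) against original (x axis) hair cells for all 9026 tested genes in grey and the 9 EF-hand genes in colour, both axes on a log scale. The solid line marks equal FPKM and the dashed line an equal share of the column sum: S100b and Cabp2 lie above the solid line, S100a1 and Calm3 between both lines, and Ocm, Calm2, Pvalb and Calb2 well below the dashed line.

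Calmodulin is the general calcium sensor of the cell and is made from separate genes. Calm2 stood at 515 FPKM in new and 20627 FPKM in original hair cells, 40.0-fold lower in new, and its rank was 88 in new and 10 in original hair cells. Its level stayed close to that of Ocm in each group, as Ocm over Calm2 was 1.15 in new and 1.26 in original hair cells. Calm3 stood at 36.7 FPKM in new and 156 FPKM in original hair cells, 4.24-fold lower in new. Of the 3075 tested genes with 10 to under 1000 FPKM in original hair cells, a class set on that column alone, 67.6% were at least 2-fold lower. The rank of Calm3 was 973 in new and 1171 in original hair cells, so it stood higher in the order of new hair cells despite its lower FPKM. In the authors' deposited table the unadjusted p was 0.0734 for Calm2 and 0.256 for Calm3. Calm2 over Calm3 was 14.02 in new and 132 in original hair cells, a 9.44-fold difference between the groups.

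Cabp2 encodes a calmodulin-like sensor that, in inner hair cells, limits inactivation of the voltage-gated calcium channel at the synapse. It stood at 46.3 FPKM in new and 22.3 FPKM in original hair cells, 2.08-fold higher in new, and its rank was 821 in new and 2602 in original hair cells. Its direction was opposite to that of 4 of the 5 tested inner hair cell markers. Over all tested genes, 80.8% had a lower difference than Cabp2. Of the 3075 genes with 10 to under 1000 FPKM in original hair cells, a class set on that column alone, 92.0% had a lower difference than Cabp2. In the authors' deposited table its unadjusted p was 0.598, the largest of the 9. Its 4 close relatives in the table (Cabp1, Cabp4, Cabp5 and Cabp7) were under 1 FPKM in both groups.

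The order of the set and the ratios within it do not depend on a constant factor applied to either column, whereas quantile normalization keeps the order and changes the ratios. From high to low, the order was S100a1, Ocm, Calm2, Calb1, Pvalb, S100b, Cabp2, Calb2 and Calm3 in new hair cells. In original hair cells it was Ocm, Calm2, S100a1, Pvalb, Calb2, Calb1, Calm3, Cabp2 and S100b. No spread is known, so neighbours close in level cannot be ordered firmly: Cabp2 was 1.06-fold above Calb2 and Ocm 1.15-fold above Calm2 in new hair cells, and Ocm 1.26-fold above Calm2 and Cabp2 1.27-fold above S100b in original hair cells. The 9 genes summed to 5226 FPKM in new and 74953 FPKM in original hair cells, which was 2.14% of all FPKM in new and 3.46% in original hair cells.

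S100a1 dominated this sum in new hair cells. It gave 69.2% of the set in new and 20.3% in original hair cells, while Ocm gave 11.3% in new and 34.8% in original. Calm2 gave 9.86% in new and 27.5% in original hair cells, and Pvalb 2.36% in new and 12.1% in original. The 2 calbindins together with Calm3, Cabp2 and S100b were minor in both groups, Calb1 being the largest of these in new hair cells at 3.21% and Calb2 in original hair cells at 2.87%. Ocm over S100a1 was 0.164 in new and 1.72 in original hair cells, a 10.5-fold difference between the groups.

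**Figure D3:**
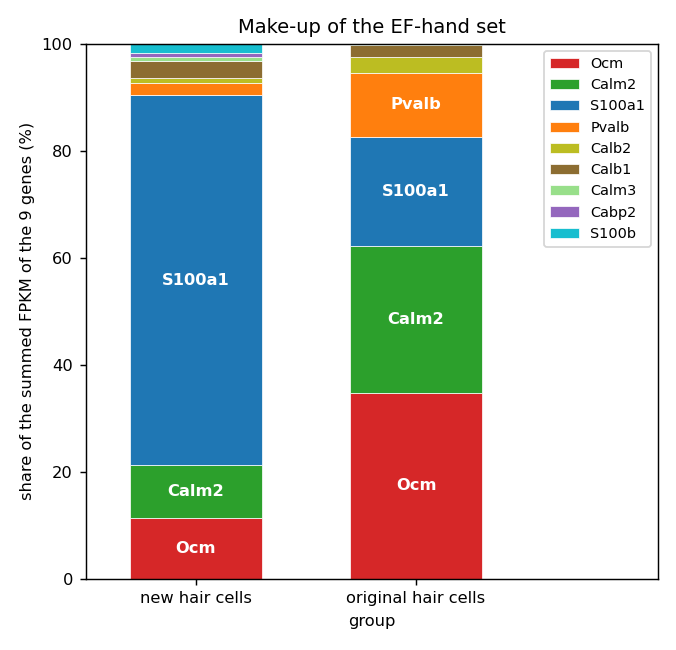
Share of the summed FPKM of the 9 EF-hand genes held by each gene, in percent, in new (left) and original (right) hair cells. S100a1 fills 69.2% of the bar of new hair cells and 20.3% of that of original hair cells, where Ocm (34.8%) and Calm2 (27.5%) are larger.

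Scaling decides the sign for some of these genes. The median difference of all tested genes was -0.21 as deposited, 0.06 with trimmed-mean scaling, 0.26 after quantile normalization and 2.53 with both columns scaled to equal sums. The number of EF-hand genes at least 2-fold lower was 7, 7, 4 and 4 under these settings, where 34.9%, 32.1%, 26.2% and 15.0% of all tested genes were. The number at least 2-fold higher was 2, 2, 3 and 4, where 19.9%, 26.2%, 31.8% and 69.6% of all tested genes were. Ocm, Pvalb, Calb2 and Calm2 were lower in new hair cells under each of the 4 settings, and S100b and Cabp2 higher under each. S100a1 and Calm3 were lower as deposited and with trimmed-mean scaling, and higher after quantile normalization or with equal sums. Calb1 was lower throughout, but only by 0.01 after quantile normalization and by 0.16 with equal sums. Measured from the median of the tested genes, S100a1 stood at -1.86 as deposited, 1.39 after quantile normalization and -1.45 with equal sums.

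**Figure D4:**
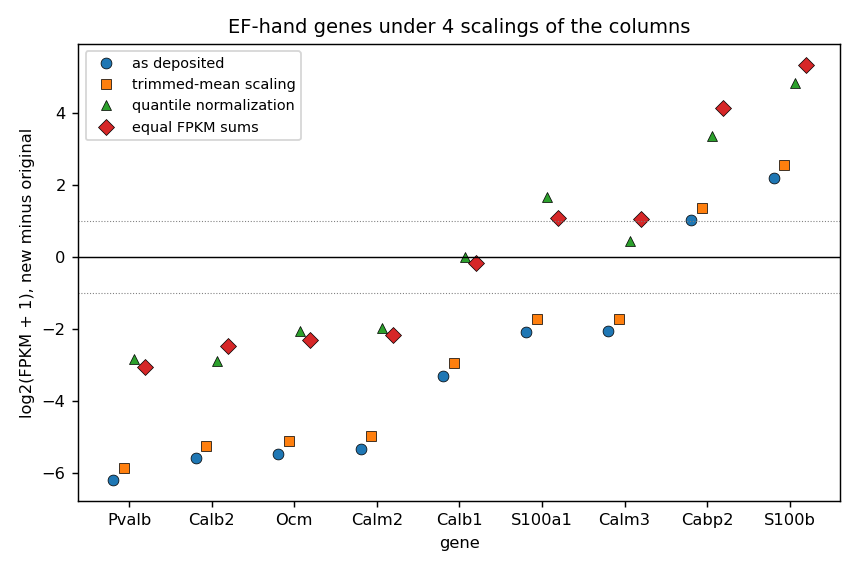
Difference in log2(FPKM + 1) of new minus original hair cells for each EF-hand gene (x axis, ordered by the deposited scale) under 4 scalings of the columns. Dotted lines mark a 2-fold difference: Pvalb, Calb2, Ocm and Calm2 lie below the lower line and S100b and Cabp2 above the upper line in every setting, while S100a1 and Calm3 cross 0.

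None of the 9 genes passed an adjusted p of 0.05. After Benjamini-Hochberg adjustment over all 9026 tested genes, the p-values of the authors' deposited table gave adjusted p from 0.526 to 0.912 for the 9 genes. No tested gene passed, and rows outside the tested genes were not adjusted. Without adjustment, Ocm and Pvalb were below 0.05 and lower in new hair cells, and no member was higher at that level. Over all tested genes 8.83% were lower and 0.554% higher at that level.

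Other EF-hand genes were examined to see how far the rest of the family shared these directions. Of 71 further genes listed, 37 were tested, of which 15 were at least 2-fold lower in new hair cells and 12 higher by 2-fold or more. That is 40.5% and 32.4% of the tested ones, beside 34.9% and 19.9% of all tested genes, and their median difference of -0.19 lay near the -0.21 of all tested genes. With equal sums 16.2% of the 37 were at least 2-fold lower and 62.2% at least 2-fold higher, beside 15.0% and 69.6% of all tested genes. After quantile normalization 24.3% were at least 2-fold lower and 40.5% at least 2-fold higher, beside 26.2% and 31.8% of all tested genes. By the authors' deposited table, 4 of the 37 had a p below 0.05, all lower in new hair cells, beside 8.83% of all tested genes.

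Subfamilies, which were formed after values were seen, differed in direction. Of 8 tested S100 genes other than S100a1 and S100b, 6 were higher by 2-fold or more in new hair cells and 1 lower by as much as deposited, after trimmed-mean scaling and after quantile normalization. Over all tested genes, 19.9%, 26.2% and 31.8% were at least 2-fold higher under these settings, and 34.9%, 32.1% and 26.2% at least 2-fold lower. With equal sums 7 of the 8 were at least 2-fold higher and none at least 2-fold lower, beside 69.6% and 15.0% of all tested genes. S100a13, which takes part in the release of secreted proteins, had the largest positive difference of the list, at 474 FPKM in new and 46.7 FPKM in original hair cells. S100a10, the annexin A2 partner, stood at 325 FPKM in new and 64.5 FPKM in original hair cells. The p of S100a13 in the authors' deposited table was 0.105. On the deposited scale S100b was higher in new hair cells as were most of its tested relatives, and S100a1 was lower. Several S100 genes are also expressed by immune and connective tissue cells. The 6 immune markers summed to 102 FPKM in new and 5.598 FPKM in original hair cells, mostly through Tyrobp, at 71.7 FPKM in new and 3.24 FPKM in original, and Fcer1g, at 28.7 FPKM in new and 1.83 FPKM in original. The pan-leukocyte marker Ptprc was listed at 0 in both groups. The 8 mesenchyme markers summed to 413 FPKM in new and 2032 FPKM in original hair cells. Otor gave most of the sum in original hair cells, at 0.226 FPKM in new and 1383 FPKM in original. Lum gave most of it in new hair cells, at 375 FPKM in new and 89.4 FPKM in original. Of 7 tested ones 4 were at least 2-fold lower and 2 at least 2-fold higher in new, beside 34.9% and 19.9% of all tested genes. The part of immune and mesenchymal cells in the levels of the S100 genes was not tested.

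Calml4 and the centrins were lower on the deposited scale. Calml4, a calmodulin-like protein of microvillar protrusions, stood at 215 FPKM in new and 6750 FPKM in original hair cells, 31.3-fold lower in new, in a row that shares its locus with other genes. The 3 tested centrins, EF-hand proteins of the centriole, were at least 2-fold lower in new hair cells under each of the 4 scalings. Over all tested genes 34.9% were so as deposited, 32.1% with trimmed-mean scaling, 26.2% after quantile normalization and 15.0% with equal sums. Cetn2 stood at 81.0 FPKM in new and 1526 FPKM in original hair cells, and Cetn4 at 0.469 FPKM in new and 118 FPKM in original. Necab2, a neuronal calcium-binding protein, had the most negative difference of the list and stood at 4.32 FPKM in new and 646 FPKM in original hair cells, 149-fold lower in new. The authors' deposited table gave it a p of 0.0081. Cib1 was higher, at 317 FPKM in new and 55.5 FPKM in original hair cells.

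**Figure D5:**
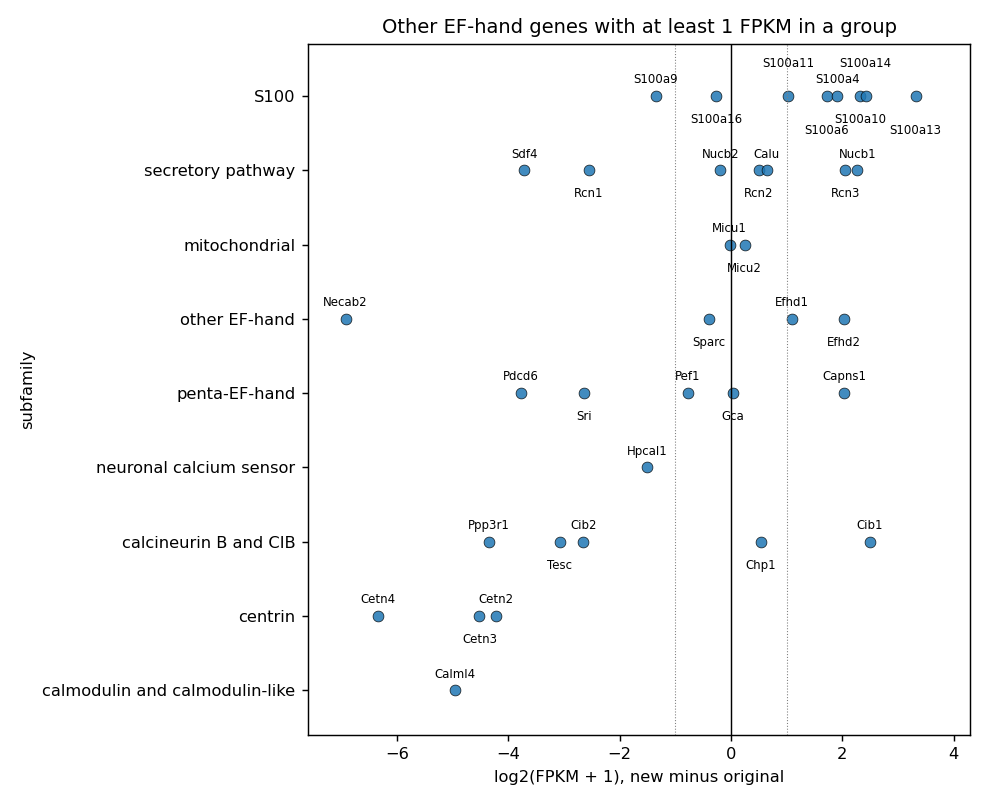
Difference in log2(FPKM + 1) of new minus original hair cells (x axis) for 36 of the 37 tested EF-hand genes outside the set, by subfamily (rows), with dotted lines at a 2-fold difference. The 6 S100 genes on the right are higher by 2-fold or more in new hair cells, while the 3 centrins and Calml4 lie on the left.

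Partners of calmodulin were described next, as the proteins through which it acts. Of 52 listed genes 25 were tested, and 13 were at least 2-fold lower in new hair cells and 5 higher by 2-fold or more, or 52.0% and 20.0%, beside 34.9% and 19.9% of all tested genes. Their median difference was -1.60, against -0.21 over all tested genes. With equal sums 9 of the 25 were at least 2-fold lower and 12 at least 2-fold higher, beside 15.0% and 69.6% of all tested genes. By the authors' deposited table, 7 of the 25 had a p below 0.05, all lower in new hair cells, beside 8.83% of all tested genes. Camk2n1, an inhibitor of the calmodulin-dependent kinase CaMKII, stood at 4.26 FPKM in new and 641 FPKM in original hair cells, 150.5-fold lower in new. Camk1, another calmodulin-dependent kinase, stood at 7.85 FPKM in new and 883 FPKM in original hair cells in a row that shares its locus. Among genes with at least 5 FPKM in a group, the largest positive differences were those of Sptan1, a spectrin (8.47 FPKM in new and 1.48 FPKM in original hair cells), and Marcks (10.2 FPKM in new and 3.25 FPKM in original).

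Genes of calcium entry and clearance set the load that these proteins meet. Of 43 listed genes 42 were in the table under the listed symbol and 21 were tested, of which 11 were at least 2-fold lower in new hair cells and 4 higher by 2-fold or more. That is 52.4% and 19.05% of the tested ones, beside 34.9% and 19.9% of all tested genes. Their median difference was -2.11, against -0.21 over all tested genes. With equal sums 23.8% were at least 2-fold lower and 47.6% at least 2-fold higher, beside 15.0% and 69.6% of all tested genes. Atp2a3, a calcium pump of the endoplasmic reticulum, stood at 6.08 FPKM in new and 1144 FPKM in original hair cells. Atp2a3 is also on the inner hair cell list. Smdt1, a subunit of the mitochondrial calcium uniporter, stood at 257 FPKM in new and 1496 FPKM in original hair cells, and was higher in new after quantile normalization and with equal sums. Chrna10, a subunit of the calcium-permeable efferent receptor, stood at 12.0 FPKM in new and 77.7 FPKM in original hair cells, and was higher in new with equal sums. The store-operated channel genes separated: Orai1 stood at 30.5 FPKM in new and 3.73 FPKM in original hair cells, and Orai2 at 0.224 FPKM in new and 65.9 FPKM in original. Cacnb3, a channel beta subunit, stood at 25.2 FPKM in new and 7.19 FPKM in original hair cells.

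Promoter windows were read because the factor that was overexpressed, Atoh1, is a basic helix-loop-helix protein, and such proteins bind the E-box CANNTG. RefSeq (GRCm38.p6) windows of 250 bases before the start were given for 6 of the 9 genes, without Calb1, Calb2 and Calm2. CANNTG, which reads the same on both strands, was present in 2 of the 6, S100b with 1 site and Cabp2 with 2, and in 66.2% of 32841 windows of that length. The windows of Ocm, Pvalb, S100a1 and Calm3 held no such match, which says only that these letters are absent from 250 bases. CAGCTG, one form of the E-box, was in none of the 6 and in 4270 of all 32841 windows. CAGATG, searched on both strands and another form of it, was in Cabp2 and in 14.5% of all windows. The windows with a match are shown with CANNTG in capitals, S100b from chr10:76253586-76253835 and Cabp2 from chr19:4082238-4082487, both on the plus strand.
S100b: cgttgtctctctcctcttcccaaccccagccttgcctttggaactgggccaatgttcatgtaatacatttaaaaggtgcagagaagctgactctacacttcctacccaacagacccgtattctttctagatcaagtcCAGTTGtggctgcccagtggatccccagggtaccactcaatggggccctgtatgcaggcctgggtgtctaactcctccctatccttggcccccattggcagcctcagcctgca
Cabp2: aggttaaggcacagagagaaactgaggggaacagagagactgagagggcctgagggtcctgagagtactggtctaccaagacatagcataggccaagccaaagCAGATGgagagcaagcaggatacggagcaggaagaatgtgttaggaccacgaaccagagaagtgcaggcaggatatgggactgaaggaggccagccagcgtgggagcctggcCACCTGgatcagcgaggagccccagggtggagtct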

How the data were processed

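Total RNA of sorted cells went into SMART-Seq v4 Ultra Low Input libraries, per the labels' protocols. CASAVA 1.8, Trimmomatic, TopHat and build mm10 are named in the submitters' processing notes. Neither the program behind the FPKM values nor the authors' test was stated. Each gene had 1 deposited FPKM value in each group, per the file headers, so the authors pooled or averaged the 2 libraries of a group. The authors also deposited a log2 ratio and a p-value without adjustment. For the 9 genes their log2 ratio differed from that of both FPKM columns by less than 0.01. Of the rows, 105 named more than 1 gene, 5315 shared a locus, and 1 empty line was not analysed here. Of 6016 genes with the same end as in GENCODE M21, 2977 began 1 base lower in the table.

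Differences are new minus original on log2(FPKM + 1), over genes with at least 1 FPKM in a group and above 0 in both. Adding 1 makes the differences of low genes appear smaller. Folds of single genes are plain FPKM ratios. Deposited p-values were adjusted by Benjamini-Hochberg over 9026 genes, with a threshold of 0.05. Scaling and adjustment were tested on simulated data. The members and lists were chosen with earlier results of these data known. From each other list, the 3 genes of highest FPKM were named, with the 2 largest positive and 2 largest negative differences at 5 FPKM or more, and the 3 genes closest to Ocm. S100a10, the promoter motifs, the classes of original level and any other gene named were chosen after their values were seen. A few genes of the lists and 1 loop sequence are not reported here. Alternatives were a pseudocount of 0.1 or none, no filter or one of 5 FPKM, trimmed-mean scaling (trimming 30% of the ratios and 5% of the levels at either end), quantile normalization, equal sums, a fold of 10, and omission of rows with a shared locus. Tools were Python 3.11.15 with Biopython 1.88, numpy 2.4.6, pandas 2.3.3, matplotlib 3.10.9 and scipy 1.17.1.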

Additional observations from a re-analysis of the deposited data

How the results depend on the processing

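The 9 EF-hand genes had 7 members at least 2-fold lower in new hair cells as deposited, and 4 after quantile normalization, 4 with equal sums and 4 at a fold of 10. Over all tested genes these shares were 34.9%, 26.2%, 15.0% and 16.6%. The median difference of the 9 genes was -3.30 as deposited, -2.95 with trimmed-mean scaling, -0.014 after quantile normalization, -0.16 with equal sums and -2.68 without rows sharing a locus, where Calb2 drops out. Over all tested genes the medians under these settings were -0.21, 0.06, 0.26, 2.53 and -0.20. The median of the 9 genes minus that of all tested genes was -3.09 as deposited, -0.28 after quantile normalization and -2.69 with equal sums. S100a1 turned to 1.65 after quantile normalization and 1.08 with equal sums, and Calm3 to 0.45 and 1.06, and the cause was not tested. No other member changed sign under any alternative. Other EF-hand genes at least 2-fold lower numbered 15 as deposited, 9 after quantile normalization and 6 with equal sums. That was 40.5%, 24.3% and 16.2% of the tested ones, beside 34.9%, 26.2% and 15.0% of all tested genes. Calmodulin partners numbered 13 as deposited, or 52.0% of the tested ones, beside 34.9% of all tested genes. Without rows sharing a locus they numbered 7, where 7069 genes were tested in place of 9026. The share over all genes without such rows was not computed, so the lower number cannot be read as a lower share. Genes of calcium entry and clearance numbered 11 as deposited and 5 with equal sums, or 52.4% and 23.8%, beside 34.9% and 15.0% of all tested genes. The pseudocount and the filter on low values moved none of these counts past 1.5 times. No paired analysis was possible because the columns carry no replicate, and leaving out each replicate was not run for the same reason. Depth limits cannot be given without counts.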
